A study of Mus musculus with 8 samples.

Results

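Collagen transcripts were examined in RNA sequencing data from naive CD8 T cells of mouse spleen, in 4 wild type (WT) and 4 Brca1 heterozygous (Het) libraries. The rule took every row of the table whose symbol starts with Col, a number, the letter a and a number, which gave 44 of 22609 genes. Of the 44, 43 were collagen chains: 11 fibrillar, 6 of the basement membrane and 26 others. The remaining match, Col4a3bp, encodes a ceramide transfer protein that was first named for binding a collagen, and it is described apart. Both groups were C57BL/6 mice of 3 months, left untreated as far as the labels say, with WT 45, 54, 57 and 65 and Het 31, 53, 56 and 139 named by the number in their titles. The sources used here do not state what kind of Brca1 allele it is, nor sex, litter or day of isolation. Since nothing in the labels ties the libraries to different animals, p-values reflect only the spread among the libraries, which may be technical.

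Collagens are proteins of the extracellular matrix in which chains with regularly spaced glycines wind into a triple helix. Fibrillar collagens assemble into the tensile fibres of skin, bone, tendon and vessel walls, type IV collagen forms the sheet of basement membranes, and the remaining types decorate fibrils, anchor epithelia or span cell membranes. Fibroblasts, endothelial cells and epithelial cells are the usual producers, and T cells are known as cells that bind collagen through integrins more than as cells that make it. In spleen, type I and III fibres form the reticular network and capsule.

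Most tested collagens were highest in WT 45 and WT 54, and the other 2 WT libraries were near the Het libraries in many of them. Of the 24 chains that could be tested, none passed the test between genotypes, although 21 were lower in Het on average, where 48.0% of all tested genes were. These shares are not like for like, as 10 of the 24 were tested only through high WT values, against 354 of all 12048 tested genes. Among genes above 0 in any library, 37 of 43 chains were lower in Het, against 8762 of 17496 genes. In 15 of the 24, among them Col1a1, Col1a2, Col3a1, Col6a1 and Col8a1, WT 45 and WT 54 were both higher than each of the other 6 libraries, against 3.77% of all tested genes, a pattern noticed after the values had been seen. A small set behaved otherwise: Col11a2, Col23a1 and Col20a1 were at high values in every library.

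Upstream sequences are shown for Col3a1, Col5a1 and Col8a1, which share the high values in WT 45 and WT 54 and whose upstream windows hold no annotated exon. They are the 250 bases before the annotated start, 5′ to 3′ on the gene's strand, from RefSeq in build GRCm38.p6, whereas the submitters' notes name mm9. Capitals mark the motif GGGCGG (the GC box) and the motif TATAA on either strand. The windows are chr1:45311288-45311537 (plus strand), chr2:27886175-27886424 (plus strand) and chr16:57754738-57754987 (minus strand).
Col3a1: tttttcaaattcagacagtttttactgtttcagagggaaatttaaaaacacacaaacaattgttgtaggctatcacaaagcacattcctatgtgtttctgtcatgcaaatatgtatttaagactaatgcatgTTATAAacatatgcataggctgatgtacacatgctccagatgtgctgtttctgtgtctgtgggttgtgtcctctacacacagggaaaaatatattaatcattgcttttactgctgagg
Col5a1: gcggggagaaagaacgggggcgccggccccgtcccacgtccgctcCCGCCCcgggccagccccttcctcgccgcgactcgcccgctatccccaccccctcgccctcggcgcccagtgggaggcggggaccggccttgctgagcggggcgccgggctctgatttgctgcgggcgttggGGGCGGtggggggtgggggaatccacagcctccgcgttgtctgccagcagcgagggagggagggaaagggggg
Col8a1: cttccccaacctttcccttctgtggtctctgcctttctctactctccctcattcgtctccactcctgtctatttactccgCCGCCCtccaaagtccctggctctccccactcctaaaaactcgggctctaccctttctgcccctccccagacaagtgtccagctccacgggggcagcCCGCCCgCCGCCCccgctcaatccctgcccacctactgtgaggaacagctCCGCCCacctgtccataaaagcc
The GC box, counted on both strands, occurred 4 times before Col8a1, 2 times before Col5a1 and 0 times before Col3a1, and 32.7% of all 32851 upstream windows of this length held it. TATAA was found only in the Col3a1 window of these 3, as 2 overlapping matches on opposite strands, and in 22.8% of all windows. CCAAT on either strand was in none of the 3 and in 33.8% of all windows.

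The T cell marker Cd8a was between 40591 and 50265.2 in the 8 libraries, as normalized read counts, the unit of all values here unless stated otherwise. The deposited libraries have nearly equal totals, which therefore do not show depth. The number of distinct values up to 100, a rough guide to the reads behind a value of 100, was 106, 125, 112 and 128 in WT 45, 54, 57 and 65 versus 121, 106, 74 and 85 in Het 31, 53, 56 and 139, so by it Het 31 and Het 53 were as deep as WT libraries and Het 56 and Het 139 were not. The lowest value above 0 gave another order, at 0.2 to 0.3 in WT but 0.9 to 1.9 in Het libraries, and between 15358 and 15569 genes were above 0 in WT against 13863 to 14656 in Het. Chains above 0 numbered 38, 39, 34 and 35 of 43 in WT 45, 54, 57 and 65 versus 32, 30, 28 and 26 in Het 31, 53, 56 and 139, a difference in the same direction as that of all genes above 0. The part of depth or of the scale at low values in it was not tested. Brca1 was between 148.6 and 208.1 in WT and between 126.7 and 174.5 in Het libraries, and a value per gene gives no check of the genotype.

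Summed over the 43 chains, the collagens made up a minute share of each library. The sum was 7457.8, 7786, 3289.6 and 3452.8 in WT 45, 54, 57 and 65 versus 2117.5, 2532.5, 4053.1 and 2391.2 in Het 31, 53, 56 and 139. That is 0.0271% and 0.0283% of the total in WT 45 and WT 54 and between 0.0077% and 0.0147% in the other 6. Het 56 was above WT 57 and WT 65, so the genotypes overlapped in the sum. Col11a2 and Col23a1 weighed heavily in it, at 1707.2 and 798.8 in Het 56 and 1160.6 and 547.1 in WT 57. The mean of log2(value + 1) over the 43 chains did not overlap. In WT 45, 54, 57 and 65 it was 4.39, 4.43, 3.45 and 3.29. In Het 31, 53, 56 and 139 it was 2.76, 2.74, 3.27 and 2.73, with Het 56 close to WT 65. That mean gives chains at or near 0 the same weight as others, and its difference was not tested. Taken over all 22609 genes, the same mean did not overlap either. Its lowest WT value was 5.111 (WT 65) and its highest Het value 5.099 (Het 31). A lack of overlap in this mean is thus not particular to collagens. Averaged by genotype, the mean was 3.89 (WT) and 2.87 (Het) over the chains, against 5.114 and 5.083 over all genes. In bulk samples, fewer cells that make collagen and less collagen RNA per cell cannot be told apart.

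**Figure D1:**
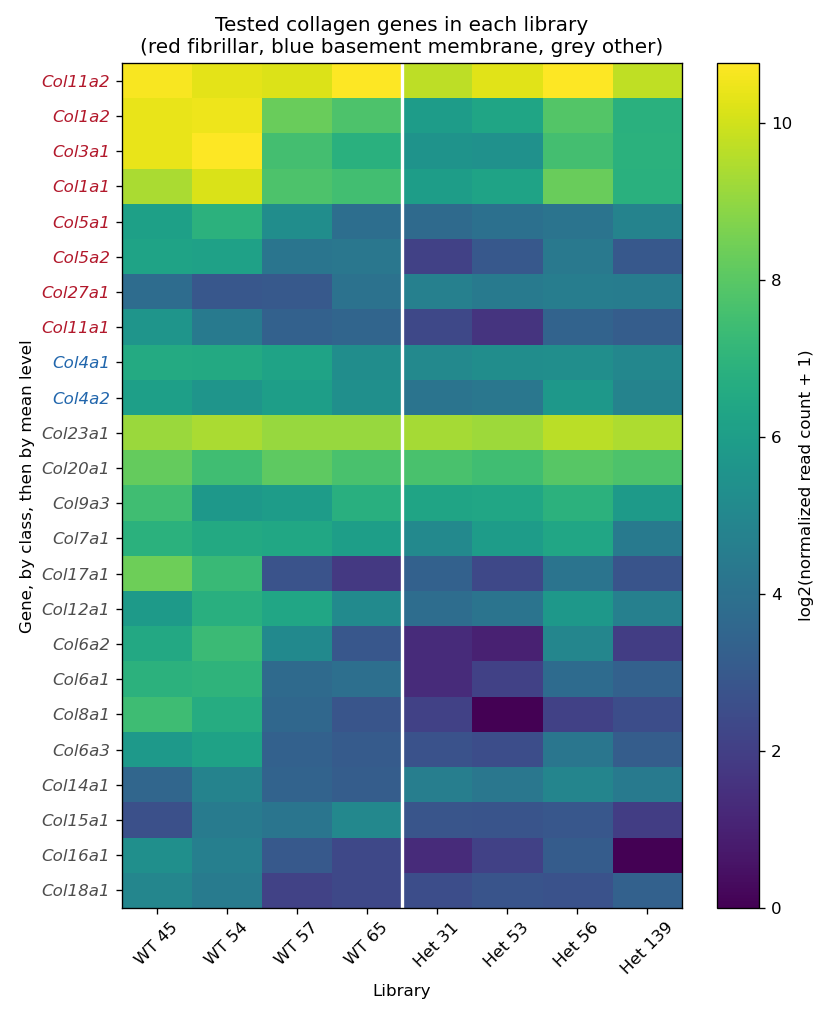
Colour gives log2(normalized read count + 1) for the 24 tested collagen genes (rows, by class and then by mean level) in the 8 libraries (columns, WT left of the white line). WT 45 and WT 54 are brightest for 15 of the 24 genes, while Col11a2 and Col23a1 are bright in all columns.

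The limma test was run on genes averaging 10 or more across the 8 libraries, on log2(value + 1), and p-values were adjusted by the Benjamini-Hochberg method over all 12048 tested genes, with a threshold of 0.05. By that test 0 of 24 collagen chains changed, where 0.515% of all tested genes were called, all lower in Het. At an unadjusted limma p under 0.05 there were 16 chains, 15 of them lower in Het (background 4.40% lower and 8.19% in either direction). The median log2 difference, Het minus WT, was -1.44 over the 24 tested chains and -0.997 over all 43, against 0.01 over all tested genes and -0.00060 over all 17496 genes above 0 in any library. Of the 24, 10 passed the filter only through WT, with a Het mean under 10, so the tested chains lean toward lower Het values by construction. Without WT 45 and WT 54, 17 chains could be tested, 14 of them lower in Het, with a median of -0.80, and the lowest limma adjusted p was 0.867 (Col15a1). All Het libraries lay below all WT libraries in 1 chain of 24, Col8a1 (background 2.86%), and above them in 1 chain of 24, Col27a1 (background 2.13%). Counts of 1 in 24 are near those shares, and Col8a1 had passed the filter only through WT.

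**Figure D2:**
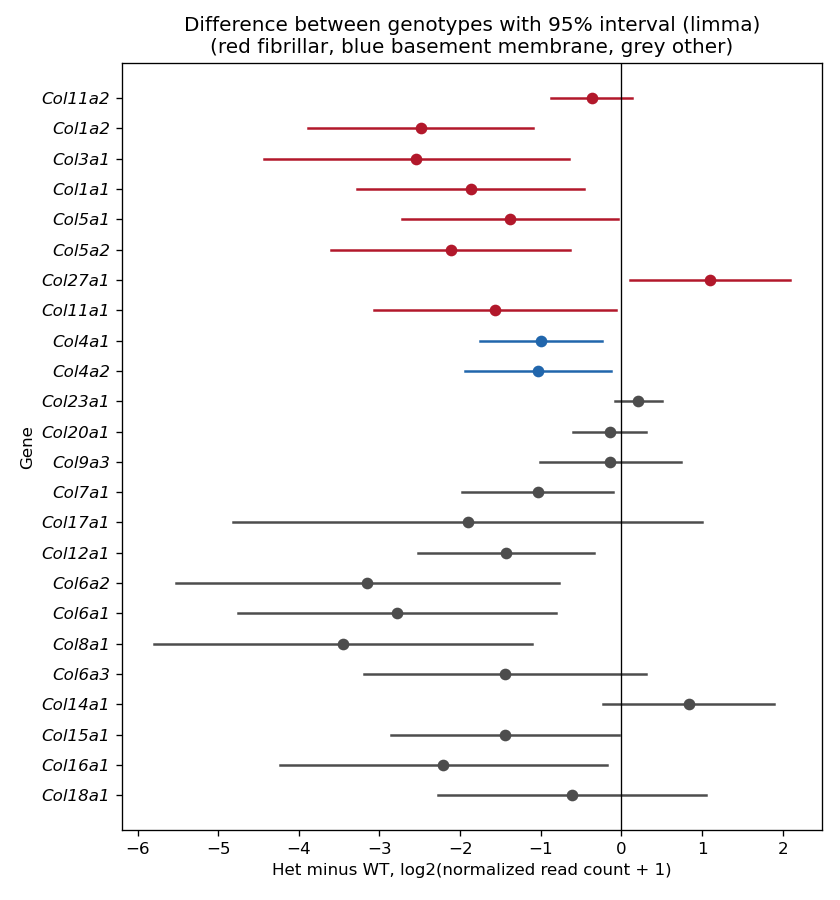
Points are log2 differences, Het minus WT, of log2(normalized read count + 1) for the 24 tested collagen genes, and lines are limma's 95% intervals from 4 libraries of each genotype, unadjusted for multiple testing. Most points lie left of 0 with wide intervals, while Col27a1, Col14a1 and Col23a1 lie to the right.

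Among the fibrillar collagens, which had 8 tested genes, 7 were lower in Het, and 0 passed the limma test. At an unadjusted limma p under 0.05 there were 7, 6 of them lower (background 4.40% lower and 8.19% in either direction). The median log2 difference was -1.72 over the tested and -1.38 over all 11. Of the 8, Col5a2 and Col11a1 had entered the test only through WT, with a Het mean under 10. Col1a1 encodes the alpha 1 chain of type I collagen, the main protein of skin and bone. It was at 667.4, 1139.4, 212.3 and 181.8 in WT 45, 54, 57 and 65 versus 61.7, 73.6, 316.1 and 111.7 in Het 31, 53, 56 and 139. Het 56 exceeded WT 57 and WT 65, so the genotypes overlapped, and the means were 550 ± 451 and 141 ± 119 (SD, n = 4 each), with a log2 difference of -1.87 (SE 0.64, limma adjusted p = 0.442).

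Col1a2, the partner chain of the type I helix, had the lowest adjusted p of the collagens. Its values were 1365.7, 1416.7, 318.7 and 213.4 in WT 45, 54, 57 and 65 versus 61, 79.6, 235.9 and 111.7 in Het 31, 53, 56 and 139. Only Het 56 and WT 65 overlapped, and the means of 829 ± 651 and 122 ± 78.7 differed by -2.49 in log2 (SE 0.63, 95% interval -3.88 to -1.10, limma adjusted p = 0.183). Without WT 45 and WT 54 the log2 difference was -1.28 (limma adjusted p = 0.999).

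Col3a1 makes the type III collagen of reticular fibres and vessel walls. It reached 1336.1, 1733.4, 188 and 112.1 in WT 45, 54, 57 and 65 versus 44.5, 42.1, 185.2 and 117.3 in Het 31, 53, 56 and 139. WT 57 and WT 65 thus lay inside or next to the Het range, and the means of 842 ± 816 and 97.3 ± 68.2 differed by -2.54 (SE 0.85, limma adjusted p = 0.428). Without WT 45 and WT 54 that became -0.85 (limma adjusted p = 0.999).

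Types V and XI collagen form minor chains inside fibrils. Col5a1 was at 68.4, 118.4, 38.1 and 13.6 in WT 45, 54, 57 and 65 versus 12, 14.9, 16.6 and 27.4 in Het 31, 53, 56 and 139. Col5a2, which lies beside Col3a1 in the genome, was at 74.8, 69.4, 17.1 and 18 in the same WT order and at 3.2, 6.8, 19.2 and 6.8 in the same Het order. In both genes WT 45 and 54 stood highest and a Het library exceeded a WT library (log2 differences -1.38, SE 0.60, and -2.12, SE 0.67, limma adjusted p = 0.597 and 0.372). Col11a1 showed the same order at low values, with 47.7 and 20.1 for WT 45 and 54 and 2.1 to 10.4 for the other 6 (limma adjusted p = 0.594).

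Col27a1, a fibrillar collagen of cartilage, went the other way. It was at 12.9, 6.6, 7.1 and 15.7 in WT 45, 54, 57 and 65 versus 24.4, 20.8, 22.9 and 21.8 in Het 31, 53, 56 and 139. Every Het library was above every WT library, at means of 22.5 ± 1.54 and 10.6 ± 4.46 (log2 difference 1.10, SE 0.45), and the limma adjusted p was 0.565.

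The 2 type I chains were also compared per kilobase of the longest annotated transcript. The ratio of Col1a1 to Col1a2 on that scale was 0.441 in WT 45, 0.725 in WT 54, 0.601 in WT 57 and 0.768 in WT 65, and lay between 0.834 and 1.21 in the Het libraries. Every WT ratio was lower than every Het ratio, a description that was noticed after the values had been seen and was not tested. The ratio of Col3a1 to Col1a2 ranged from 0.505 in WT 65 to 1.18 in WT 54, and the genotypes overlapped in it. Per kilobase, no single order of levels held across the WT libraries. In WT 54 Col3a1 (312) and Col1a2 (265) were above Col11a2 (209), whereas in WT 57 and WT 65 Col3a1 (33.8 and 20.1) was below Col23a1 (96.7 and 96.4) and Col20a1 (53.7 and 40.5). In Het the order of mean levels per kilobase was Col11a2 (191), Col23a1 (119), Col20a1 (42.1), Col9a3 (27.4), Col1a1 (23.7), Col1a2 (22.8) and Col3a1 (17.5). The last 3 do not differ beyond their spread, and the order did not hold in each library. In Het 56 Col1a1 (53.3) was above Col20a1 (50.2) and Col9a3 (39.1).

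Basement membrane collagens were at low values, and of 6 chains 2 were tested, both lower in Het and neither past the limma threshold. Both had an unadjusted limma p under 0.05 (background 4.40% lower). Col4a1 and Col4a2 form the common type IV helix and are transcribed head to head from neighbouring starts, with overlapping annotated exons, so their counts could mix if strand was ignored. Col4a1 was at 95.8, 92.8, 74.5 and 37.6 in WT 45, 54, 57 and 65 versus 32.9, 38, 38.3 and 31 in Het 31, 53, 56 and 139. Het 53 and Het 56 passed WT 65 by less than 1 unit, and the means of 75.2 ± 26.8 and 35.1 ± 3.66 differed by -0.998 (SE 0.34, limma adjusted p = 0.447). Without WT 45 and WT 54 the log2 difference was -0.59 (limma adjusted p = 0.999).

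Col4a2 was at 67.1, 47.6, 65.2 and 39.5 in WT 45, 54, 57 and 65 versus 16.6, 18.2, 51.8 and 27.4 in Het 31, 53, 56 and 139, with Het 56 inside the WT range (log2 difference -1.03, SE 0.41, limma adjusted p = 0.543). WT 57 was close to WT 45 in this gene, unlike in the fibrillar chains. Col4a3, Col4a4, Col4a5 and Col4a6, the chains of specialised membranes such as the kidney filter, were too low to test. Col4a5 was at 6, 8.8, 0.3 and 2.5 in WT 45, 54, 57 and 65 versus 3.2 in Het 53 and 0 in the other Het libraries, and Col4a6 at 5.7 in WT 54 and 0.4 or less in every other library. In Het libraries the lowest values above 0 were 0.9 to 1.9, so values of this size there rest on few reads.

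The other collagens had 14 tested genes, 12 of them lower in Het and 0 past the limma threshold. At an unadjusted limma p under 0.05 there were 7, all lower (background 4.40% lower). The median log2 difference was -1.44 over the tested and -0.61 over all 26. Of the 14, 8 had entered the test only through WT, with a Het mean under 10. They were Col6a1, Col6a2, Col6a3, Col8a1, Col15a1, Col16a1, Col17a1 and Col18a1. Type VI collagen makes beaded filaments around cells of muscle, nerve and fat. Col6a1 was at 120.2, 127.1, 12.3 and 14.4 in WT 45, 54, 57 and 65 versus 1.5, 3.2, 12.4 and 9.1 in Het 31, 53, 56 and 139. Col6a2 was at 89.8, 158.8, 33.2 and 6.6 in the same WT libraries and at 1.5, 1, 30.1 and 2.9 in the same Het libraries. Het 56 matched or exceeded a WT library in each, and the log2 differences were -2.78 (SE 0.89) and -3.15 (SE 1.07), with limma adjusted p of 0.380 and 0.441. Col6a3, for which WT 45 and 54 had 55.8 and 72.8 and the other 6 had 4.9 to 17.9, had a limma adjusted p of 0.653.

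Col8a1 encodes a network-forming chain of vessel walls and the eye. Its values were 171.5, 100.2, 11 and 6.1 in WT 45, 54, 57 and 65 versus 3.2, 0, 3.2 and 4.8 in Het 31, 53, 56 and 139. There was no overlap between the genotypes, but the gap between WT 65 and Het 139 was about 1 unit. With a Het mean under 10, Col8a1 had entered the test only through WT. The log2 difference was -3.46 (SE 1.06, 95% interval -5.80 to -1.11, limma adjusted p = 0.336), and without WT 45 and WT 54 the gene fell under the filter.

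Col17a1 and Col7a1 hold the epidermis to the dermis, the first as a membrane protein of basal keratinocytes and the second as the anchoring fibril. Col17a1 was at 331.9, 156.6, 5.8 and 2.5 in WT 45, 54, 57 and 65 versus 9.1, 4.1, 16.6 and 6 in Het 31, 53, 56 and 139. WT 57 and WT 65 were among the lowest libraries, and the log2 difference was -1.91 with a standard error of 1.32 (limma adjusted p = 0.708). Col7a1 was more even, at 117.4, 91.9, 84.8 and 65.1 in the WT libraries in that order and at 32.9, 60, 80.6 and 19.7 in the Het libraries (log2 difference -1.04, SE 0.42, limma adjusted p = 0.564).

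The fibril-associated collagens, which sit on fibril surfaces, did not share 1 pattern. Col12a1 was highest in WT 54 and WT 57, at 108.7 and 80.9, with 56.9 and 34.8 in WT 45 and 65 versus 13.2, 16.6, 52.8 and 25.1 in Het 31, 53, 56 and 139 (log2 difference -1.43, SE 0.49, limma adjusted p = 0.447). Col14a1 was at 10.6, 27.2, 9.6 and 7.9 in WT 45, 54, 57 and 65 and between 18.2 and 29.1 in Het, so that 3 of the 4 WT libraries were below every Het library (log2 difference 0.83, SE 0.48, limma adjusted p = 0.660). Col16a1 followed the fibrillar chains, with 39.5 and 24.1 for WT 45 and 54 and at most 7.7 for each other library (limma adjusted p = 0.578).

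The multiplexins Col15a1 and Col18a1, whose tail fragments are known as inhibitors of vessel growth, differed from each other. Col15a1 was at 5.1, 21.1, 17.1 and 31.6 in WT 45, 54, 57 and 65 versus 6.1, 6, 6.5 and 2.9 in Het 31, 53, 56 and 139, with WT 45 at the Het level (log2 difference -1.44, SE 0.64, limma adjusted p = 0.601). For Col18a1, WT 45 and 54 had 29.3 and 21.1 and the other 6 had 3.3 to 9.1 (limma adjusted p = 0.820). WT 65 was thus the highest library for Col15a1 and among the lowest for Col18a1.

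Col11a2, Col23a1, Col20a1 and Col9a3 were at 52.8 or more in every library. Col11a2, a chain of cartilage fibrils, was at 1613, 1262.2, 1160.6 and 1724.1 in WT 45, 54, 57 and 65 versus 821.7, 1238.1, 1707.2 and 848.1 in Het 31, 53, 56 and 139 (log2 difference -0.37, SE 0.23, limma adjusted p = 0.685). It lies next to Rxrb, a nuclear receptor gene at 3833.2 to 4496.9 in all libraries, and whether reads of a neighbour were counted on it was not tested. Col23a1, a membrane-spanning collagen, was between 545.2 and 679.1 in WT and between 587.3 and 798.8 in Het, and Col20a1 between 177.2 and 295.8 in WT and between 177.4 and 251.6 in Het (limma adjusted p = 0.690 and 0.844). Col9a3, of cartilage fibril surfaces, was between 52.8 and 174.7 in WT and between 57 and 119.2 in Het, and its annotated exons overlap the opposite-strand gene Tcfl5, which is listed at 0 in every library (limma adjusted p = 0.929). For Col11a2 the 95% interval of the log2 difference was -0.87 to 0.14, for Col23a1 -0.08 to 0.51 and for Col20a1 -0.60 to 0.31, which leave out a change of 1 in either direction.

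The order of the libraries in Col11a2 crossed the genotypes. WT 45, WT 65 and Het 56 were its 3 highest libraries, and they were also the 3 highest for Col9a3. The same 3 led P4ha1, a prolyl hydroxylase subunit that stabilises the collagen helix, at 4105.7, 3910.1 and 3473.9 against 1481.9 to 2534.5 elsewhere. They also led Plod1, a lysyl hydroxylase of collagen, at 724.1, 762.4 and 678.2 against 212.1 to 479.9. This pattern, picked after the values had been seen, held for 2 of the 24 tested collagens, Col11a2 itself included. It held for 2 of the 13 tested genes of collagen assembly and secretion, P4ha1 and Plod1, and for 3.15% of all tested genes.

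**Figure D3:**
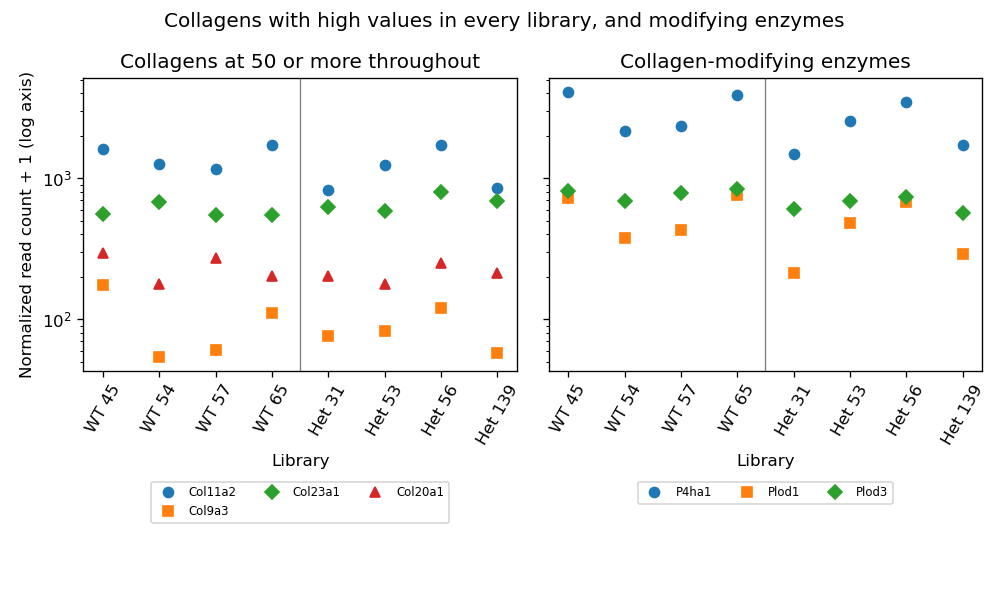
Normalized read counts plus 1 (log axis) are plotted per library, WT left of the grey line, for 4 collagen genes (left) and 3 enzymes that modify collagen chains (right). Col11a2, Col9a3, P4ha1 and Plod1 are highest in WT 45, WT 65 and Het 56, while Col23a1 stays between 545.2 and 798.8.

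The 19 chains below the filter had a mean of at most 8.94 (Col5a3), against 10.4 for the lowest tested chain (Col18a1). Of their 152 values, 80 were 0, and the highest was 20.9, for Col28a1 in WT 57. Col28a1, a collagen of peripheral nerve, was at 1.4, 2.9, 20.9 and 11.6 in WT 45, 54, 57 and 65 versus 1.5 in Het 31 and 0 in Het 53, 56 and 139. It was thus highest in WT 57 and WT 65, unlike the fibrillar chains. Col2a1, the collagen of cartilage, was at 14.2 in WT 45 and at most 4.9 in every other library, and Col9a1 at 10 in WT 45, 3.2 in Het 31 and at most 0.7 elsewhere. Col10a1, Col13a1, Col19a1, Col22a1, Col25a1, Col4a3, Col6a4 and Col6a5 did not exceed 2.2 in any library. Neither did Col4a4, and Col9a2 did not exceed 2.4. Col5a3, a minor fibrillar chain, was at 1.9 to 20.1 where above 0 and at 0 in Het 139, with no order by genotype. Col8a2, Col24a1 and Col6a6 reached 11, 7.7 and 6.5, the first in WT 57 and the others in Het 56.

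Col4a3bp, the ceramide transfer protein that the symbol rule also took, was between 2187.1 and 3088.2 in WT and between 1613.6 and 3029.3 in Het libraries. The means of 2540 ± 398 and 2314 ± 600 (SD, n = 4 each) gave a log2 difference of -0.16 (SE 0.18, limma adjusted p = 0.808). WT 65 and Het 53 were its highest libraries and Het 139 its lowest, and the genotypes overlapped.

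Markers of other tissues were set beside the collagens. Of 8 epidermis markers 7 were tested, and in 7 of 7 WT 45 and WT 54 were above the other 6 libraries, as in 15 of the 24 collagens. The values of Krt5, made by the basal cell layer of skin, were 1125.6, 758.9, 9.6 and 0.2 in WT 45, 54, 57 and 65 versus 11.1, 8.7, 51.8 and 13.4 in Het 31, 53, 56 and 139. WT 45 and 54 had summed levels of 6316.3 and 4706.6 over the list, WT 57 and 65 of 160.7 and 87.6, and the Het libraries of 119.6 to 890.3, highest in Het 56. Only Dsg3 was at 0, in Het 53 and Het 139. The part of such cells in the collagen values was not tested.

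The summed level of the fibroblast markers was between 1441.6 and 2000.6 in WT and between 1424.2 and 1639.3 in Het, most of it Gsn. Of 6 tested members 0 passed limma (3 at an unadjusted p under 0.05, 2 of them lower, background 4.40% lower and 8.19% in either direction). Pdgfra, a receptor that defines fibroblasts, was at 29.3, 20.1, 16.4 and 25.8 in WT 45, 54, 57 and 65 versus 2.4, 3.2, 3.2 and 0 in Het 31, 53, 56 and 139 (log2 difference -3.07, SE 0.66, limma adjusted p = 0.0885). For Dpt, a dermal matrix protein, WT 45 and 54 had 29.3 and 27.7, WT 57 and 65 had 0 and 0.2, and the Het libraries had 4.1 to 9.1. Pdgfra was the 1 tested member of 6 with every WT library above every Het library (background 2.86%). Dpt shared only the high WT 45 and WT 54 with the collagens, as its log2 difference was 0.22. Pdgfra and Dpt, with Het means under 10, had entered the test only through WT. Pdpn was at 0 in every Het library, Mfap4 at 0 in WT 65. Ly6c1, which CD8 T cells also express, was higher in each Het than in each WT library, without passing (limma adjusted p = 0.376).

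Of 7 tested Schwann cell and nerve markers, 6 were lower in Het and 3 passed the limma test (background 48.0% lower and 0.515% called). Mtap1b, a neuronal microtubule protein, was at 396.3, 1719.7, 1571.6 and 1827.9 in WT 45, 54, 57 and 65 versus 2.4, 7.8, 76.1 and 7.9 in Het 31, 53, 56 and 139. It fell by 6.63 (log2; limma adjusted p = 0.0102), as did S100b, by 5.36, and Pmp22, by 4.48 (limma adjusted p = 0.00667 and 0.0357). S100b kept its call with any 1 library dropped, Mtap1b lost it when WT 57 was dropped (limma adjusted p = 0.0524), and Pmp22 kept it only when Het 56 was. S100b, with a Het mean under 10, had entered the test only through WT. WT 45, the highest library for 11 of the 24 collagens, was the lowest WT library for these 3 genes. The list's sum, most of it Mbp, was between 10843.3 and 13779.5 in WT and between 9594 and 10676.3 in Het, and Sox10 was at 0 in Het 31 and Het 139. Endothelial markers, with a sum of 5397.9 to 5759.6 in WT and 5557.9 to 7123.8 in Het, most of it Pecam1, and mural cell markers, with 34.8 to 128.8 and 46.2 to 130.6, had 0 of 3 tested members each past the limma threshold and 0 at an unadjusted p under 0.05. Of the 3 tested endothelial markers, Cdh5 was lower in Het, at 19.4 to 50.8 in WT and 13.2 to 27.4 in Het (limma adjusted p = 0.660). Vwf was higher, at 9.2 to 40.6 in WT and 20.6 to 74.8 in Het (limma adjusted p = 0.685), as was Pecam1 (limma adjusted p = 0.660). The vessel genes Emcn (at 0 in WT 45, Het 31 and Het 139) and Kdr did not exceed 4.4 and 16.6.

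**Figure D4:**
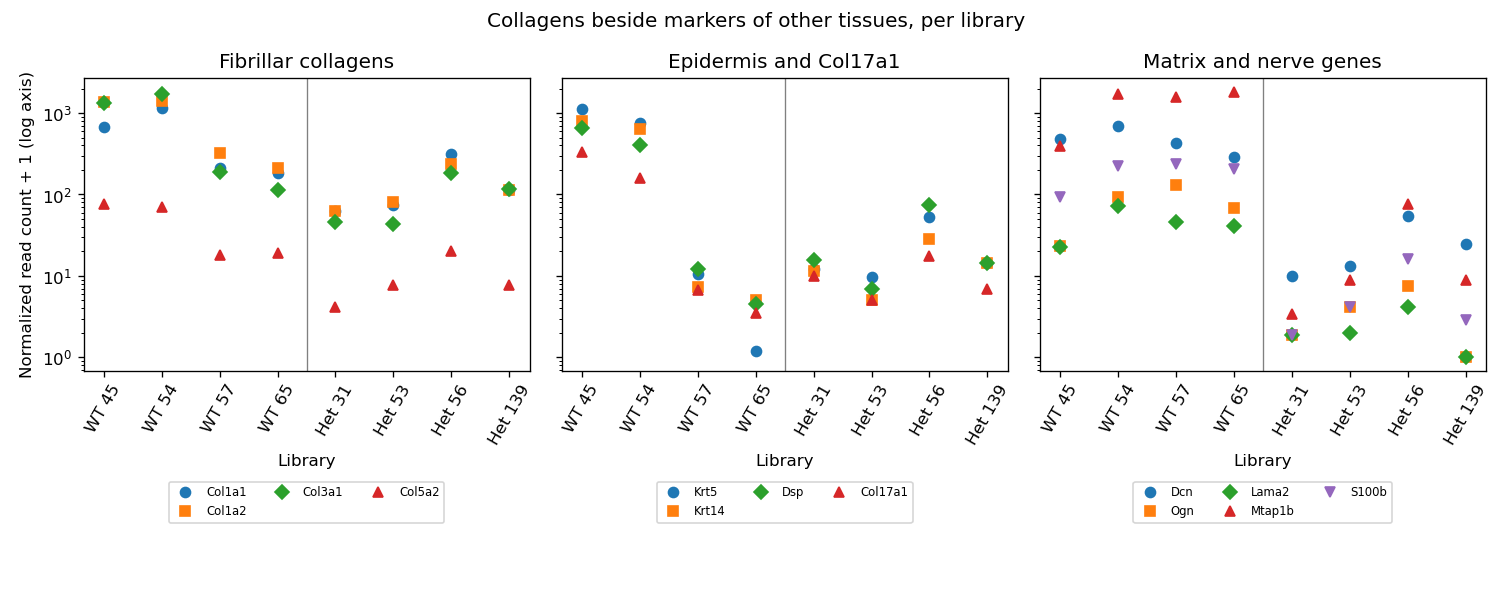
Normalized read counts plus 1 (log axis) are plotted per library, WT left of the grey line, for fibrillar collagens (left), epidermis markers with Col17a1 (centre) and matrix and nerve genes (right). The collagens and epidermis genes are highest in WT 45 and WT 54, whereas Mtap1b and S100b are high in all 4 WT libraries.

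Genes that make, process or bind collagen were counted from fixed lists, and 3 of 54 tested members passed the limma test, all lower in Het: Dcn, Ogn and Lama2 (background 0.515%). Of the 54, 14 had entered the test only through WT, with a Het mean under 10, among them Ogn and Lama2. Dcn, a proteoglycan that binds fibrils, was at 482.7, 685.1, 425.6 and 285 in WT 45, 54, 57 and 65 versus 9.1, 12.2, 54.1 and 23.9 in Het 31, 53, 56 and 139. Its log2 level fell by 4.44 (SE 0.49, limma adjusted p = 0.00536). Ogn, a related proteoglycan, was at 22.5, 90.9, 131.6 and 66.8 in WT versus 0.9, 3.2, 6.5 and 0 in Het in the same order (log2 change -4.58, SE 0.76, limma adjusted p = 0.0281). Lama2, the laminin chain of muscle and nerve basement membranes, was at 21.7, 70.6, 45.4 and 39.5 in WT versus 0.9, 1, 3.2 and 0 in Het in the same order (log2 change -4.39, SE 0.65, limma adjusted p = 0.0202). In these 3 genes, among 13 of the 54, every WT library was above every Het library (background 2.86%). Of the 13, Ogn, Prelp, Fbn1, Lama2, Lamb1, Lamb2 and Ddr2 had entered the test only through WT, so the count leans toward this order by construction. Dcn passed with any 1 library left out (limma adjusted p at most 0.0333), whereas the calls of Lama2 and Ogn were lost when WT 54, WT 57, WT 65, Het 31 or Het 53 was dropped, and that of Ogn also when Het 139 was (limma adjusted p up to 0.110 and 0.141). Without WT 45 and WT 54 together, 0 list genes were called by limma, where 3 genes were called in the whole table.

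By role, the small proteoglycans and fibril partners had 13 tested genes, 12 of them lower in Het and 2 past the threshold. Of the 13, 9 had entered the test only through WT, and the median log2 difference was -1.86 over the tested and -1.73 over the 16 members above 0 in any library. In 7 of the 13, WT 45 and WT 54 were above the other 6 libraries, as in most tested collagens. Postn, a matrix protein that binds type I collagen, and Eln, the elastin of elastic fibres, were among the 7. Lum was not, at 56.9, 98.8, 98.4 and 25.8 in WT 45, 54, 57 and 65 versus 4.8, 2.1, 27.4 and 2.9 in Het 31, 53, 56 and 139 (limma adjusted p = 0.114). Postn was at 489.3, 355.6, 45.4 and 45.4 in WT 45, 54, 57 and 65 versus 17.6, 22.4, 114.5 and 42.5 in Het 31, 53, 56 and 139, and for Eln WT 45 and 54 had 160.2 and 110.7 and the other 6 had 2.2 to 9.1. Basement membrane partners had 9 tested genes, 8 lower and 1 past the threshold, with 3 tested only through WT (median -1.45 over the tested and -1.09 over all 16). Hspg2, the heparan sulphate proteoglycan perlecan, was at 40.6 to 90.9 in WT and 9.1 to 21.7 in Het (limma adjusted p = 0.0885), and Nid1, the nidogen that links laminin to type IV collagen, at 77.6 to 147.7 and 25.8 to 57 (limma adjusted p = 0.123).

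The enzymes and chaperones of collagen assembly, which most cells express, had about as many higher as lower members. Of 13 tested, 7 were lower and 6 higher in Het, and 0 passed the limma test or had an unadjusted p under 0.05 (median log2 difference -0.0033). Plod3, a lysyl hydroxylase, had the smallest p (log2 difference -0.27, SE 0.12, limma adjusted p = 0.609). Among processing and cross-linking genes 3 of 4 tested were lower and 0 passed limma (1 at an unadjusted p under 0.05, background 8.19% in either direction). Sparc, a collagen-binding matrix protein, was at 977.1, 1128.2, 421.9 and 286.3 in WT 45, 54, 57 and 65 versus 72.6, 97.7, 169.1 and 259.8 in Het 31, 53, 56 and 139 (log2 difference -2.18, SE 0.49, limma adjusted p = 0.109). Its genotypes did not overlap, with WT 65 and Het 139 closest.

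Collagen receptors had 7 tested genes, 3 lower and 4 higher, with 0 past the limma threshold. At an unadjusted limma p under 0.05 there were 2, 1 in each direction (background 8.19% in either direction). Ddr2, a receptor kinase of fibroblasts that binds fibrillar collagen, was at 16.6 to 42.5 in WT and 0.9 to 9.1 in Het (log2 difference -2.54, SE 0.66, limma adjusted p = 0.199). With a Het mean under 10, Ddr2 had entered the test only through WT. Itga2, the integrin chain that binds type I collagen on platelets and T cells, was at 12.2, 19.2, 19.2 and 53.4 in WT 45, 54, 57 and 65 versus 68.4, 67.6, 47.7 and 54.3 in Het 31, 53, 56 and 139 (log2 difference 1.36, SE 0.44, limma adjusted p = 0.385). WT 65 lay inside the Het range for Itga2. Lair1, an inhibitory collagen receptor of leukocytes, was at 264.2 to 409.4 in WT and 356.2 to 444.8 in Het (limma adjusted p = 0.653). Of 8 tested degradation genes 7 were lower and 0 passed limma (3 at an unadjusted p under 0.05, all lower, background 4.40% lower). Timp3, a matrix-bound inhibitor of metalloproteinases, was at 129.6 to 256.1 in WT and 14 to 77.5 in Het (log2 difference -2.37, SE 0.49, limma adjusted p = 0.0774). Mmp2, a gelatinase, followed the collagens, with 129 and 97.9 for WT 45 and 54 and 0.9 to 14 for the other 6. It too had entered the test only through WT.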

How the data were processed

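The deposited file is a table of signal values, the authors' normalized read counts, for 22609 genes and 8 libraries. The notes list mm9 as the build and CASAVA, TopHat2, HTSeq and DESeq as tools, per the submitters' processing notes, without roles or versions. How values were normalized, and whether counting used strand, is not given in the sources used here. All 8 libraries had nearly equal totals and shared 1 distribution apart from the low values. There the lowest value above 0 and the number of genes above 0 differed. No count model was used on these normalized values, and depth was read only roughly, from the number of distinct values up to 100. R 4.3.3 with limma 3.58.1 (mean-level trend) was run on log2(value + 1) for genes averaging 10 or more, 2-sided, over all 12048 genes, and was tested on simulated data. The pseudocount of 1 understates changes of low genes.

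The named genes were all collagen members and, from each list, members past the threshold or among the up to 3 smallest p, plus defining markers. Others (Postn, Eln, Mmp2, Dpt, Emcn, Kdr, Plod1) were named after their values had been seen. The members, lists and tests were chosen with earlier results of these data known. Alternatives were pseudocounts of 0.5 and 5, no filter, a mean of at least 50, median ratio scaling, a common floor of 1.9, no trend, a robust fit, array weights and each library left out. Leaving out WT 45 and WT 54 together was chosen after seeing the data. Transcript lengths were the longest protein-coding transcripts of GENCODE M21. The values of 1 gene of the marker lists are not reported here.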

Additional observations from a re-analysis of the deposited data

Results flagged for a closer look

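In 5 of 56 sets of 4 libraries, a single library lay apart, with most of the spread of its genotype being its distance to the next one. For 4 independent, normally distributed values that happens in about 1 in 20 sets. These sets share the same libraries and most hold untransformed values, so that rate need not apply to them. Col14a1 was at 27.2 in WT 54, against 7.9 to 10.6 in the other WT libraries. Col23a1 was at 679.1 in WT 54, against 545.2 to 557.5. Col15a1 was at 2.9 in Het 139, where Het 31, 53 and 56 had 6 to 6.5. Col6a2 was at 30.1 in Het 56, against 1 to 2.9. The mean log2 level of all 43 chains was 3.27 in Het 56 and 2.73 to 2.76 in Het 31, 53 and 139.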

How the results depend on the processing

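No paired analysis was possible because the genotypes share no replicate number. No collagen chain passed the limma threshold under any of the 18 alternatives, and the lowest adjusted p was 0.0968, for Col1a2 without Het 56. Of 405 gene values under the alternatives, 402 kept their direction. The 3 that did not were Col9a3, at 0.0487 with array weights, and at 0.19 without WT 45 and 0.03 without Het 139, in a range of -0.38 to 0.19 with 1 library left out. The median log2 difference of all chains was -0.52 with a pseudocount of 5, and that of the basement membrane chains was -0.48 with it, -0.50 with a common floor and -0.59 without WT 45 and WT 54. With 1 library left out, the medians ranged from -1.14 to -0.85 for all chains, from -1.80 to -0.98 for fibrillar, from -1.24 to -0.92 for basement membrane and from -0.89 to -0.49 for other collagens. Genes called in the whole table numbered 123 without a filter, 14 with a mean of at least 50 and 3 without WT 45 and WT 54, against 62 in all; with 1 library left out they ranged from 11 without WT 57 to 91 without Het 56, with 16 each without WT 54 or WT 65 and 27, 21 and 30 without Het 31, 53 or 139. Among the genes of the pathway lists, 1 was called with a mean of at least 50, 5 with array weights, 0 without WT 45 and WT 54, and 1 to 5 with 1 library left out. The cause was not tested. The smallest value above 0 was 1.9 in Het 56 and Het 139, and the part of depth in it was not tested.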
